A study of Oryctolagus cuniculus with 34 samples.

Results

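Cytosolic ribosomal protein genes were followed in the supraspinatus of rabbits, a muscle of the rotator cuff that lifts the forelimb at the shoulder. The members were all rows of the count files whose name is RPL or RPS with a number, optionally with a letter or a final L, and the S6 kinase genes were left out. They came to 61 of 18176 genes, 38 of the large subunit (RPL) and 23 of the small subunit (RPS). The short-term libraries came from muscle with an injury only (4 libraries), with a repair only (5) and with a repair plus a gel of extracellular matrix made from tissue (5). The long-term libraries came from muscle with a repair only (5), with a repair plus the gel (5) and from uninjured muscle (10). The labels give no strain, age or number of weeks, and uninjured muscle stands in the long term only.

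A cytosolic ribosome joins a small subunit, which decodes the messenger RNA, to a large subunit, which links the amino acids, and each ribosomal protein is usually present once per ribosome. Messenger RNAs of ribosomal proteins begin with a pyrimidine-rich stretch, called a TOP motif, through which mTORC1 signalling controls their translation, and their levels tend to move together. Skeletal and heart muscle also make RPL3L, a paralog that takes the place of RPL3 in ribosomes of mature fibres. Ribosome content is a known determinant of the capacity of a muscle to make protein.

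The short-term libraries held 26904529 to 32313295 counts and the long-term libraries 12582302 to 15019158. Members took 1.31% to 3.47% of the counts of a short-term library and 0.26% to 0.457% of those of a long-term library. Column headers differ in form between the terms, so the term cannot be told apart from how the files were made, and treatments are compared within each term first. Muscle fibre markers were high in every library: 9 of 12 listed genes were in the files, and their sum was 51230 to 314500 CPM (CPM, counts scaled to library size with TMM, a correction for library composition). Injury replicate 3 and repair replicate 4 of the short term, and gel replicate 1 of the long term, stand apart from their groups, and results that rest on them are given with and without them. The data are from whole tissue, so fewer cells of a type and less RNA per cell cannot be told apart.

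In the short term the gel was first set against repair alone, which asks what the gel added to a repair. Most ribosomal protein genes had slightly higher fitted values with the gel: 55 of 61 lay above 0, against 45.7% of all 13526 genes tested, and the median log2 difference was 0.23, against -0.04 for all genes. This direction was not particular to them. Mitochondrial ribosomal proteins had 67 of 70 above 0 (median 0.33) and respiratory chain subunits 45 of 47 (median 0.60). Ribosome biogenesis factors had 11 of 41 above 0 (median -0.12). None of the ribosomal protein genes passed edgeR's test at an adjusted p of 0.05 (0 of 61, as for 0% of all genes). DESeq2 and limma voom also called 0 members, where they called 0.961% and 0.0222% of all genes. At an unadjusted p under 0.05 there were 8 members, all higher, where 5.65% of all genes were higher by that rule. RPS29, a zinc-binding protein of the small subunit head, had 223, 284, 303, 273 and 319.6 CPM in gel replicates 1 to 5. With repair alone its values were 182, 158, 223, 236 and 210.4 CPM. The gel libraries lay mostly above the repair libraries, with some overlap, and the log2 difference was 0.51 (SE 0.18, edgeR adjusted p = 0.413).

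RPS25, a small subunit protein needed by some viral internal ribosome entry sites, had 238, 292, 316, 306 and 396 CPM with the gel and 214, 218, 228, 236 and 248 CPM with repair. Its log2 difference was 0.48 (SE 0.16, edgeR adjusted p = 0.413), and its lowest gel library lay within the repair range. RPL23A, which sits at the exit of the peptide tunnel where the signal recognition particle binds, had 267, 300.2, 394, 257 and 286 CPM with the gel. Its repair values were 159, 259, 249, 249.7 and 181 CPM, and the log2 difference was 0.49 (SE 0.18, edgeR adjusted p = 0.427). Of the other 5 at an unadjusted p under 0.05, RPL13, RPL37, RPL31 and RPL35 had log2 differences of 0.42, 0.41, 0.38 and 0.37.

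The small general excess depended on gel replicate 3 and on the scaling. That library had the highest value of the term in 45 of 61 members, where it held the highest value for 9.76% of all genes. Without it the median of the members was 0.13. In the fit without the libraries that stand apart 50 of 61 members lay above 0 (median 0.17, against -0.01 for all genes). Limma voom with sample quality weights gave 44 of 61 above 0 (median 0.15, against -0.01). With library totals in place of TMM the median of all genes moved from -0.04 to -0.24 and 31 of 61 members lay above 0, so the direction against 0 rested on TMM. Relative to the median of all genes the members stood 0.27 higher with TMM and 0.25 higher with library totals. Markers of other cells also differed between these groups. All 6 fibroblast markers had lower fitted values with the gel (median -1.53, 4 at an unadjusted p under 0.05, 0 past the threshold), with sums of 3560 to 9899 CPM against 1168 to 83630 CPM after repair. All 5 tested T and B lymphocyte markers had higher ones (median 1.39, 1 at an unadjusted p under 0.05, 0 past the threshold), with sums of 2.8 to 12.8 CPM against 0.74 to 4.2 CPM, and no marker of either list was at 0 throughout a group. Of 9 muscle fibre markers 7 had higher fitted values with the gel (median 0.34, 0 at an unadjusted p under 0.05). Their sums were 97830 to 201400 CPM against 51230 to 264400 CPM. The part of these cell types in the members' values was not tested.

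**Figure D1:**
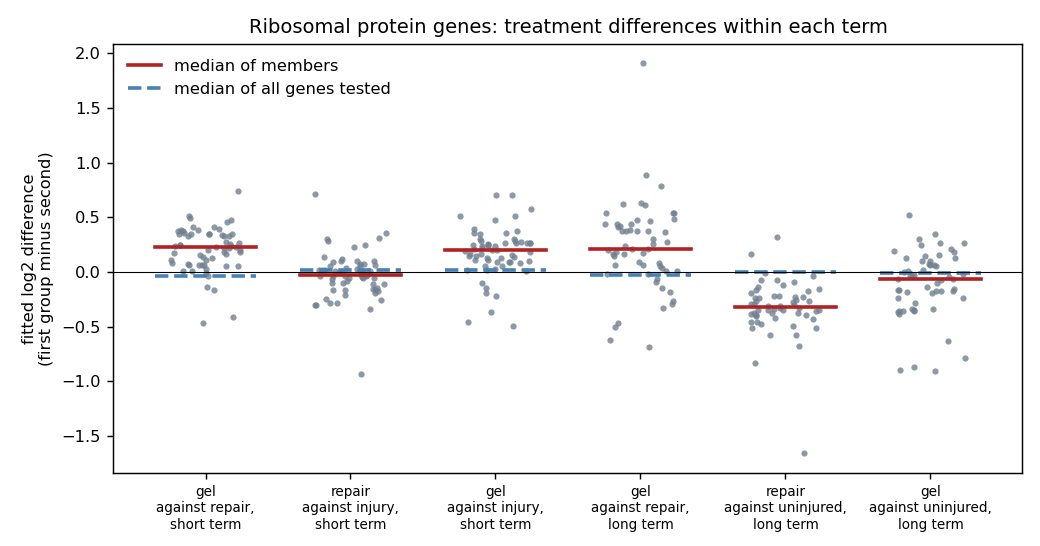
Each point is the fitted log2 difference of a ribosomal protein gene (vertical axis, first group minus second) in the comparison named below it, with 61 members in the short term and 56 in the long term. The solid line is the median of the members and the dashed line that of all genes tested: the members' median was 0.23 for gel against repair in the short term and -0.32 for repair against uninjured muscle in the long term.

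The short-term comparison of repair with injury alone showed no common direction. Of 61 members, 29 lay above 0 and 32 below, with a median log2 difference of -0.03 against 0.02 for all genes. With library totals 59 of 61 lay above 0, but the median of all genes was then 0.39, close to the members' 0.36. The count past the threshold was 0, as for 0% of all genes, and 1 member had an unadjusted p under 0.05, where 5.09% of all genes were lower by that rule. The other tools differed: DESeq2 called 0 members, where it called 1.87% of all genes, and limma voom 6, where it called 34.7%. The members furthest from 0 were the muscle paralog pair. RPL3L had 679.9, 589.7, 281 and 602 CPM in injury replicates 1 to 4 and 156, 221, 318, 567 and 155 CPM in repair replicates 1 to 5, a log2 difference of -0.94 (SE 0.39, edgeR adjusted p = 0.330). RPL3, the general form, had 115, 119, 345 and 196 CPM after injury and 376, 340.0, 248, 117 and 513 CPM after repair, a log2 difference of 0.71 (SE 0.47, edgeR adjusted p = 0.435).

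Injury replicate 3 and repair replicate 4 lay on the side of the other group for both genes, and the other libraries of these groups did not overlap for either gene. These libraries are the ones that lie with the other group, so leaving them out widens the differences by construction, and the p-values that follow are no independent support. Without them RPL3 had a log2 difference of 1.30 (edgeR adjusted p = 0.0252) and RPL3L one of -1.61 (adjusted p = 0.00537), and 33.3% of all genes were then called. Limma voom with sample quality weights keeps all libraries but gives less weight to those that vary more from their group. It called both (1.18, adjusted p = 0.0135, and -1.33, adjusted p = 0.00591), with RPL12, RPL14, RPL31 and RPS13 and 34.7% of all genes. RPL23A was the member whose groups did not overlap, with 282, 266, 294 and 263 CPM after injury, all above the highest repair library at 259 CPM. This happened in the same direction for 0.924% of all genes, and the edgeR adjusted p was 0.390 (log2 difference -0.34, SE 0.20).

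Markers of muscle fibres and of some other cells also varied across these libraries. In the 14 short-term libraries the summed fibre markers were lowest in repair replicates 5 and 1 (51230 and 55800 CPM) and injury replicate 3 (67540 CPM). RPL3L was 155 and 156 CPM in those repair libraries and 281 in the injury library, and RPL3 was 513, 376 and 345 CPM. In injury replicates 1 and 2, with fibre markers of 302400 and 314500 CPM, RPL3 was 115 and 119 CPM. Of 6 fibroblast markers, 6 had higher fitted values after repair than after injury and none was at 0 throughout. Their sum was 1168 to 83630 CPM after repair, 3560 to 9899 CPM with the gel and 1200 to 8065 CPM after injury. Also above 0 were 4 of 4 macrophage markers (median 1.72), 4 of 5 of dividing cells (2.89) and 4 of 5 of lymphocytes (1.19). Of endothelial markers 2 of 5 lay above 0 (-0.02), and of adipocyte markers 0 of 4 (-1.72). In each of these lists 0 markers passed the threshold. The part of fibres and of these other cells in the values of RPL3 and RPL3L was not tested.

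**Figure D2:**
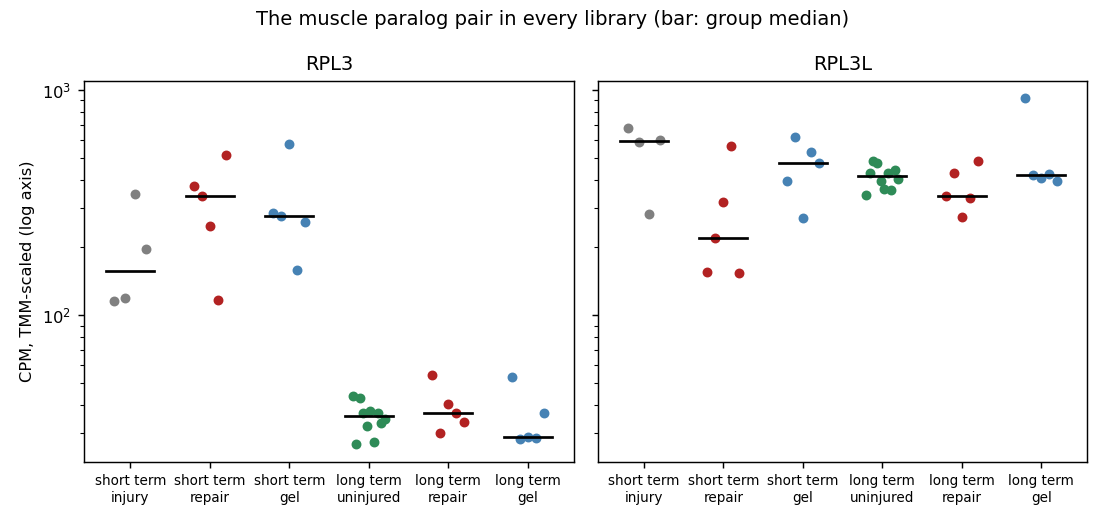
CPM of RPL3 (left) and RPL3L (right) on a log axis, 1 point per library, with the group median as a bar. Short-term injury replicate 3 (345 CPM of RPL3, 281 of RPL3L) and repair replicate 4 (117 and 567) lie with the other group, and all long-term libraries lie at 26.6 to 54.3 CPM of RPL3.

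The log2 ratio of RPL3L to RPL3 within a library does not depend on library scaling. Gene lengths were not at hand, so a ratio is read only against the same ratio in other libraries. Its mean was 1.55 ± 1.29 (SD, n = 4) after injury, -0.20 ± 1.59 (SD, n = 5) after repair and 0.64 ± 1.06 (SD, n = 5) with the gel. Repair lay 1.74 below injury on the log2 scale (difference -1.74, exact permutation p = 0.119, adjusted over 6 comparisons 0.246). Gel against repair gave a difference of 0.83 (exact permutation p = 0.349, adjusted 0.349) and gel against injury one of -0.91 (p = 0.294, adjusted 0.349, by the same exact test). The difference of repair from injury exceeded the SD of either group, and the other differences were smaller than the SDs of their groups.

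In the long term the ratio was higher and less variable: 3.25 ± 0.58 (SD, n = 5) after repair, 3.83 ± 0.25 (SD, n = 5) with the gel and 3.56 ± 0.32 (SD, n = 10) in uninjured muscle. Gel against repair gave a difference of 0.57 (exact permutation p = 0.0714, adjusted 0.246). The difference was -0.30 for repair against uninjured muscle (exact permutation p = 0.208, adjusted 0.312) and 0.27 for gel against uninjured muscle (exact permutation p = 0.123, adjusted 0.246). None of the 6 comparisons passed after adjustment, and the smallest p the designs allow is 0.00794 for the 4 with groups of 4 or 5 and 0.000333 for the others. These tests take all libraries as independent, while codes in the files' names pair operated and uninjured muscle. Within the 5 pairs of each treatment the mean difference was -0.40 for repair and 0.37 for gel. For both, an exact test that flips the signs of pair differences gave p = 0.125 (adjusted 0.375, smallest p possible 0.0625).

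Gel against injury alone in the short term again had most members above 0, at 54 of 61, with a median of 0.20 against 0.02 for all genes. EdgeR called 0 members, as for 0% of all genes, with 5 at an unadjusted p under 0.05, all higher, where 9.83% of all genes were. The count was 4 by DESeq2 and 5 by limma voom. Groups did not overlap, with the gel higher, in 4 members, where this held for 4.03% of all genes.

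RPS20, a small subunit head protein, had 271, 321, 407, 262 and 321 CPM with the gel and 188, 178, 239 and 189.7 CPM after injury. Its log2 difference was 0.70 (SE 0.23, edgeR adjusted p = 0.172). RPS13, of the small subunit body, had 289.7, 322, 404, 280.1 and 338 CPM with the gel and 217, 186, 263 and 229.5 CPM after injury, with a difference of 0.57 (SE 0.20, adjusted p = 0.181 by edgeR). For both genes every gel library lay above every injury library.

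RPL12, at the base of the stalk where elongation factors bind, had 529, 442, 606, 455 and 632 CPM with the gel and 393, 323, 429 and 380.5 CPM after injury (log2 difference 0.51, SE 0.19, edgeR adjusted p = 0.206). Here too the gel libraries all lay above the injury libraries. The 4 members that DESeq2 called had these 3 among them, with adjusted p-values of 0.0338 for RPS20, 0.0277 for RPS13 and 0.0273 for RPL12, where it called 5.84% of all genes. Limma voom called the same 4 and RPL3, where it called 27.9% of all genes. Without the libraries that stand apart, edgeR called RPS13 and RPS20, with 18.9% of all genes. Injury replicate 3, left out there, was the injury library nearest the gel for both genes (263 and 239 CPM). Leaving it out widens these differences by construction, so the calls are no independent support. The members' median fell to 0.03 without gel replicate 3. In the fit without the libraries that stand apart 43 of 61 members lay above 0 (median 0.17, against 0.04 for all genes). Limma voom gave 42 of 61 above 0 (median 0.14, against 0.07). The injury libraries serve this comparison and the previous one, so the results are not independent.

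The lowest values of the gel group came from gel replicate 5, in which part of the members were far below every other short-term library. RPL35A, a large subunit protein, had 1.77 CPM there and 143 to 252 CPM in the other 13 libraries. RPL39, which lines the peptide tunnel, had 0.885 CPM against 40.5 to 76.4. RPS27 had 4.25 CPM against 174 to 280.4, and its paralog RPS27L, a target of p53, had 4.82 CPM against 35.9 to 69.9. These 4 members stood at 0.981%, 1.72%, 2.05% and 9.42% of the median of the other libraries.

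RPL9, RPL6, RPL24 and RPL27 of the large subunit followed at 22.4% to 39.8%, and RPL5, which carries 5S ribosomal RNA and restrains MDM2 together with RPL11, at 41%. In all, gel replicate 5 held the lowest value of the term for 19 of 61 members, where it did so for 5.88% of all genes tested. It was under 50% of the lowest other library for 8 members, and for 0.532% of all genes. Some other members were near the level of the other libraries: RPL3, RPS6 and RPL7 stood at 93.4%, 98% and 99.1% of the median of the other libraries. Gel replicate 5 also held the highest value of the term for 6 of 61 members, where it did so for 3.23% of all genes. RPL31, RPL12, RPS29 and RPS25 were among them, at 138%, 139%, 143% and 160% of that median. Without this library the members' median for gel against repair was 0.27, with 58 of 61 above 0 and 0 past the threshold.

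**Figure D3:**
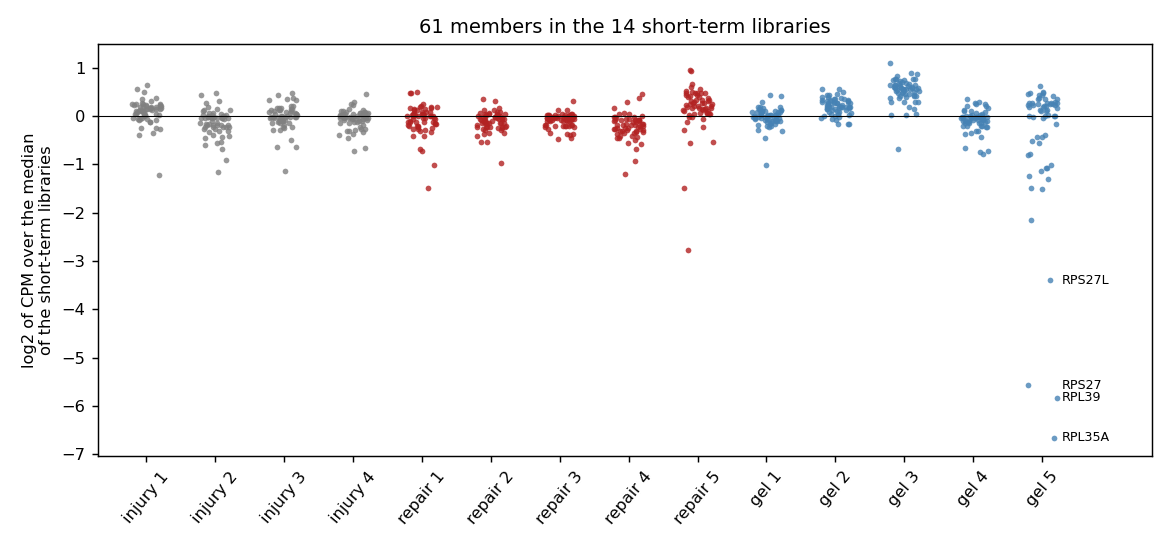
Each point is a member in a short-term library, as the log2 of its CPM over the median of the 14 libraries (vertical axis). In gel replicate 5 RPL35A, RPL39, RPS27 and RPS27L lie far below the rest, and in gel replicate 3 nearly all members lie above 0.

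In the long term 56 of 61 members were abundant enough to test. RPL30, RPS18, RPS20, RPS26 and RPS27 were not, with at most 14 counts in any long-term library. Repair against uninjured muscle, which asks how far a repaired muscle differs from normal, had the largest share of members on the same side of 0 among the 6 comparisons within a term. Fitted values were lower after repair in 54 of 56 members, where 50% of all genes lay above 0, and the median log2 difference was -0.32, against 0 for all 11605 genes. The direction was shared by some other lists. Above 0 lay 8 of 70 mitochondrial ribosomal proteins, 7 of 47 respiratory chain subunits (median -0.20) and 2 of 15 other messages with TOP motifs. Of mTORC1 and S6 kinase signalling genes 13 of 19 lay above 0. Single genes did not pass: edgeR called 0 of 56 lower, where it called 0.0431% of all genes lower and 0.965% higher. At an unadjusted p under 0.05 there were 15 members, all lower, where 3.87% of all genes were lower by that rule. By DESeq2 RPL14 and RPS15A passed, 2 members where 2.02% of all genes did. Limma voom called 0 members, where it called 0.103% of all genes. Without long-term gel replicate 1 edgeR called RPS15A and RPS16, with 1.46% of all genes.

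RPS15A, a small subunit protein, had 50.8, 57.5, 39.4, 38.8 and 52.3 CPM after repair. In the 10 uninjured libraries its lowest, median and highest values were 53.3, 68 and 85.6 CPM. The repair libraries lay at or below the lower end of the uninjured range, with a log2 difference of -0.52 (SE 0.14, edgeR adjusted p = 0.114, DESeq2 adjusted p = 0.0424).

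RPL14 of the large subunit had 119, 124, 97.3, 107 and 130.5 CPM after repair and 117, 147 and 182 CPM as the lowest, median and highest of uninjured muscle. The groups overlapped, with a log2 difference of -0.33 and a DESeq2 adjusted p of 0.0402. Others at an unadjusted p under 0.05 were RPL13, RPL4, RPL10, RPS12, RPL26, RPS3, RPL23A, RPL7, RPS4X and RPL37, with log2 differences from -0.51 to -0.34. RPL36AL (0.32, SE 0.32) and RPL3 (0.17, SE 0.16) were the members above 0.

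With the gel the long-term values lay between those of repair and uninjured muscle in the mean but depended on gel replicate 1. Gel against uninjured muscle gave 21 of 56 members above 0 and a median of -0.07, against -0.01 for all genes. EdgeR called 0 members, where it called 0.00862% of all genes, with 9 at an unadjusted p under 0.05, all lower, where 4.9% of all genes were. Neither DESeq2 nor limma voom called any (0 each), where they called 0.129% and 0.00862% of all genes. Gel against repair gave 43 of 56 above 0 and a median of 0.21, against -0.03. EdgeR called 0, as for 0% of all genes, with 9 at an unadjusted p under 0.05, all higher, where 7.88% of all genes were. DESeq2 and limma voom called 0 members, where they called 0.0604% and 0% of all genes. Adipocyte, fibroblast and macrophage markers had lower fitted values with the gel than after repair in the long term, though 0 of them passed. This held for 4 of 4 adipocyte markers (median -1.26, sums of 166 to 314 CPM against 204 to 894), 6 of 6 fibroblast markers (median -0.67, 809 to 1240 CPM against 863 to 2516) and 4 of 4 macrophage markers (median -0.67, 7.36 to 11.9 CPM against 8.47 to 32.8). Muscle fibre markers went mostly the other way (6 of 9 above 0, median 0.31, 2 at an unadjusted p under 0.05, 0 past the threshold). Their sum was 169200 to 255800 CPM with the gel, highest in gel replicate 1, against 129000 to 203500 CPM. Of 5 endothelial markers 1 lay above 0 (median -0.07). The 1 erythroid marker tested had a log2 difference of 0.86, and the 1 marker of dividing cells -0.83. No marker of these lists was at 0 throughout a group, and their part in the members' values was not tested.

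Gel replicate 1 had the highest value of the term in 33 of 56 members, where it held the highest value for 30.9% of all genes and the lowest for 32.9%. RPS16, whose tail reaches the decoding centre, had 103 CPM there and 32, 31.6, 41.3 and 38.1 CPM in gel replicates 2 to 5. Without this library the median was 0.06 for gel against repair and -0.27 for gel against uninjured muscle, with 5 of 56 members above 0 in the latter. With library totals in place of TMM 32 and 8 of 56 members lay above 0 in these comparisons, with medians of all genes of -0.17 and -0.12.

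RPL9 and RPL37A lay lowest with the gel against uninjured muscle, with log2 differences of -0.90 (SE 0.33) and -0.90 (SE 0.29) and edgeR adjusted p-values of 0.325. Both are large subunit proteins with few counts in the long term. RPL37A had 1.15, 0.798, 0.74, 1.41 and 0.97 CPM with the gel and a lowest, median and highest of 0.964, 1.81 and 3.35 CPM in uninjured muscle. RPL27A lay highest among the members above 0 (log2 difference 0.52, SE 0.31), also at about 1 CPM.

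Codes in the files' names pair each operated long-term muscle with an uninjured one, and this allowed a comparison within pairs. After repair the mean log2 level of the 56 members was lower than in the paired uninjured muscle in replicates 1, 3, 4 and 5, with differences of -0.419, -0.29, -0.385 and -0.107. In replicate 2 it was higher by 0.086. With the gel all 5 differences were below 0, at -0.059, -0.511, -0.395, -0.203 and -0.052. In the pair of gel replicate 1 only 22 of 56 members were lower than in the uninjured muscle, and its libraries differ in RPL34 and RPL31, as described next. The labels do not say that these 2 libraries come from the same animal. With the code as a block the median of the members was -0.20 for repair and -0.22 for gel against uninjured muscle, and -0.03 for gel against repair, where the fit without the block gave -0.32, -0.07 and 0.21. The lower values with the gel and the higher ones of gel over repair thus changed size or sign with the block, and edgeR called 0 members with it in each of these 3 comparisons. Without both libraries of that pair the blocked medians were -0.21, -0.33 and -0.12.

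Some members differed between animals far more than between treatments in the long term. RPL34, a large subunit protein, was either at 9.3 to 26.8 CPM (9 libraries) or at 0.146 to 0.742 CPM (11 libraries), with nothing between. It was high in repair replicate 1 (11 CPM) and low in repair replicates 2 to 5 (0.594, 0.213, 0.546 and 0.178 CPM). It was low in gel replicates 1 and 2 (0.209 and 0.29 CPM) and high in gel replicates 3 to 5 (9.3, 13.5 and 26.8 CPM). The operated and the uninjured muscle of a code were on the same side in 9 of 10 pairs. The exception was gel replicate 1, whose paired uninjured library had 16.4 CPM.

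RPL39 likewise was at 4.19 to 6.41 CPM in 6 libraries and at 0.0848 to 0.494 CPM in 14, and the muscles of a code were on the same side in 10 of 10 pairs. It was high in repair replicate 3 (4.19 CPM) and gel replicates 1 and 2 (4.82 and 4.35 CPM), and the uninjured libraries of the same codes had 5.46, 6.41 and 5.19 CPM. The libraries high in RPL39 were all low in RPL34 except for the uninjured partner of gel replicate 1. A gap of more than 2.5 on the log2 scale between neighbouring libraries was found in 2 of 56 members and in 0.551% of all 11605 genes. The treatment differences of these members, such as 1.91 (SE 1.30) for RPL34 in gel against repair, are means over libraries at 2 separate levels.

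RPL29, a large subunit protein that also binds heparin, held its level within a code more closely than RPL34. It had 3.54 CPM in gel replicate 3 and 4.11 CPM in the paired uninjured muscle, far below the rest, and 27.1 to 32.5 CPM in both muscles of gel replicates 1, 4 and 5. RPL31, at the tunnel exit, had 2.55 and 3.76 CPM in repair replicate 3 and its partner and 18.9 and 28.1 CPM in repair replicate 1 and its partner. In gel replicate 1 it had 5.34 CPM and its partner 15.9 CPM. In the short term RPL34 was at 24.6 to 67.3 CPM and RPL31 at 158 to 279 CPM, without separate levels.

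**Figure D4:**
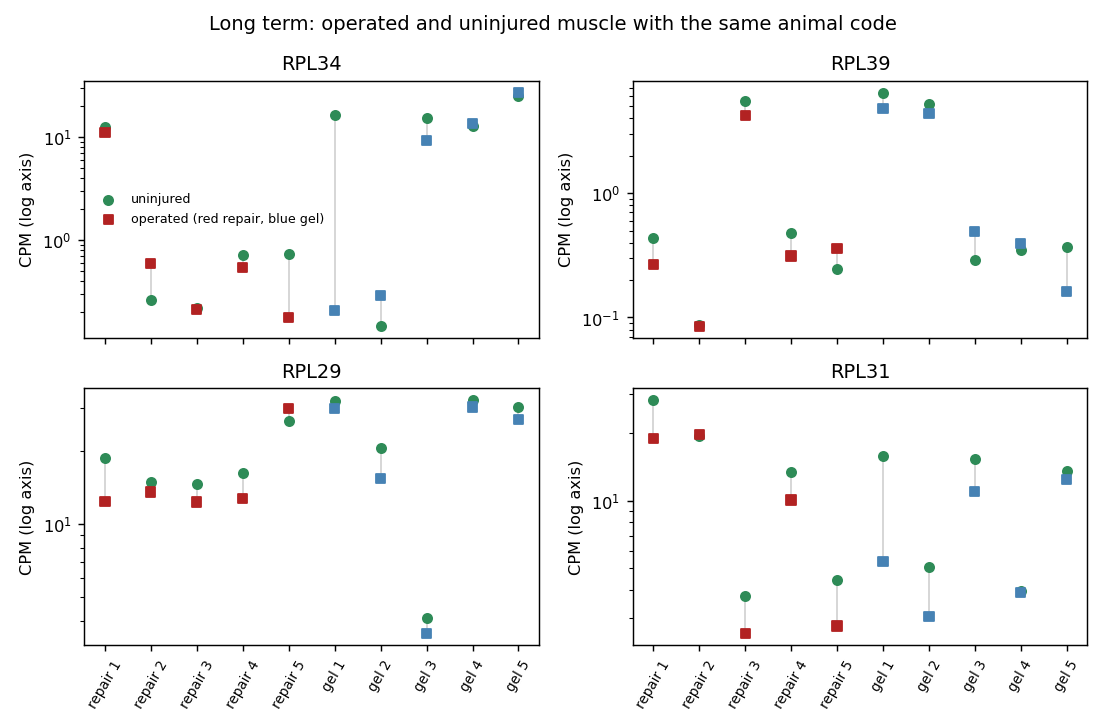
CPM on a log axis of RPL34, RPL39, RPL29 and RPL31 in the long term, with each operated library (square, red repair and blue gel) joined to the uninjured library (green circle) of the same animal code. RPL34 and RPL39 lie at separate levels that both muscles of a code share, except for RPL34 in gel replicate 1 (0.209 against 16.4 CPM).

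Members with a known further role, in the ribosome or outside it, were also read singly, with no test against the other members. RPS6, the substrate of S6 kinase, had log2 differences of 0.13, 0.07 and 0.20 for gel against repair, repair against injury and gel against injury in the short term, with SEs of 0.21 to 0.23. RPL11, partner of RPL5 in the 5S particle, had 0.33, -0.06 and 0.27. RPL13A, which can silence inflammatory messages when released from the ribosome, had 0.28, 0.03 and 0.30. None of these had an edgeR adjusted p under 0.05, nor did RPL38, known for its role in the translation of homeobox messages (0.09, 0.06 and 0.14). In the long term RPS6, at a median of 0.75 CPM, had -0.51 (SE 0.54) for gel against repair, where the members' median was 0.21, and -0.63 (SE 0.47) for gel against uninjured muscle, where it was -0.07. RPL11 had 0.08 and -0.18, RPL13A 0.44 and 0.13, and RPL38 0.30 and -0.03 in these comparisons, and none of these 4 genes had an edgeR adjusted p under 0.05 in the long term.

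Within groups the level of a member followed that of the others in most cases. Log2 levels were taken as deviations from group means, so differences between groups do not enter. The correlation of a member with the mean of the other members had a median of 0.611 across the 14 short-term libraries. Across the 20 long-term libraries the median was 0.658. The libraries share depth and scaling, so these are descriptions. RPL3L was lowest in the short term at -0.439, and RPL36AL lowest in the long term at -0.407.

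Other genes of ribosome production and its control were read from lists, and none of them passed edgeR's threshold within a term in the comparisons of gel with repair. For ribosome biogenesis factors, 0 of 41 passed in gel against repair in the short term, with a median of -0.12 and 11 above 0, while the ribosomal protein genes stood at 0.23. In repair against uninjured muscle 0 of 40 passed, with a median of -0.09. For mTORC1 and S6 kinase signalling 0 of 19 passed in each of the 6 comparisons, with medians from -0.19 to 0.04. Other messages with TOP motifs, such as elongation factors, had 0 of 15 past the threshold, with a median of 0.10 in gel against repair in the short term and -0.13 in repair against uninjured muscle in the long term. Mitochondrial ribosomal proteins, which serve the separate ribosomes of mitochondria, had 0 of 70 past it, with medians of 0.33 and -0.16 in the same comparisons. Adipocyte markers were higher in repaired than in uninjured long-term muscle (3 of 4 past the threshold, median 1.90, summed level 204 to 894 CPM against 155 to 265). With the animal code as a block all 4 stayed above 0 with a median of 1.499, but 0 passed (edgeR adjusted p = 0.561 for each), as for all genes in that fit. Fibroblast markers summed to 863 to 2516 CPM against 405 to 1473 there. Their part in the lower ribosomal protein values was not tested.

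Between the terms nearly all members were lower in the long term. In repaired muscle 58 of 61 passed the edgeR threshold as lower and 2 as higher, where 27.9% of all 12935 genes were called lower and 18.2% higher. With the gel 57 were lower and 2 higher, where 26.5% and 21.8% of all genes were. The median log2 difference, long minus short, was -3.31 in repair and -3.40 with the gel, against -0.11 and -0.09 for all genes. The term cannot be told apart from depth, sequencing and file preparation, so these values describe the libraries.

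The fall was far from uniform. The mean of the 2 differences was a fall of over 6 on the log2 scale for 17 members, of 3 to 6 for 20, of 1 to 3 for 18 and of under 1 for 3, RPL13A and RPL11 among them. RPS27 fell from a short-term median of 202 CPM to a long-term median of 0.0826 CPM, with at most 5 counts in a library and 3 libraries at 0. RPS6 fell from 503 to 0.75 CPM, RPS18 from 352 to 0.363 and RPL30 from 203 to 0.402 CPM. In all 15 members had a long-term median under 1 CPM. At the other end RPL11 went from 383 to 238 CPM (log2 differences -0.74 in repair and -0.92 with the gel). Large and small subunit members had medians of -3.42 and -3.31 in repair and of -3.41 and -3.11 with the gel. A mean fall of over 6 was seen in 9 of 38 large and 8 of 23 small subunit members, and the difference between subunits was not tested. In 51 members every long-term library lay below every short-term library, in 2 above, and in 8 the terms overlapped. Among all 12935 genes this held for 2.91% below and 1.63% above.

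**Figure D5:**
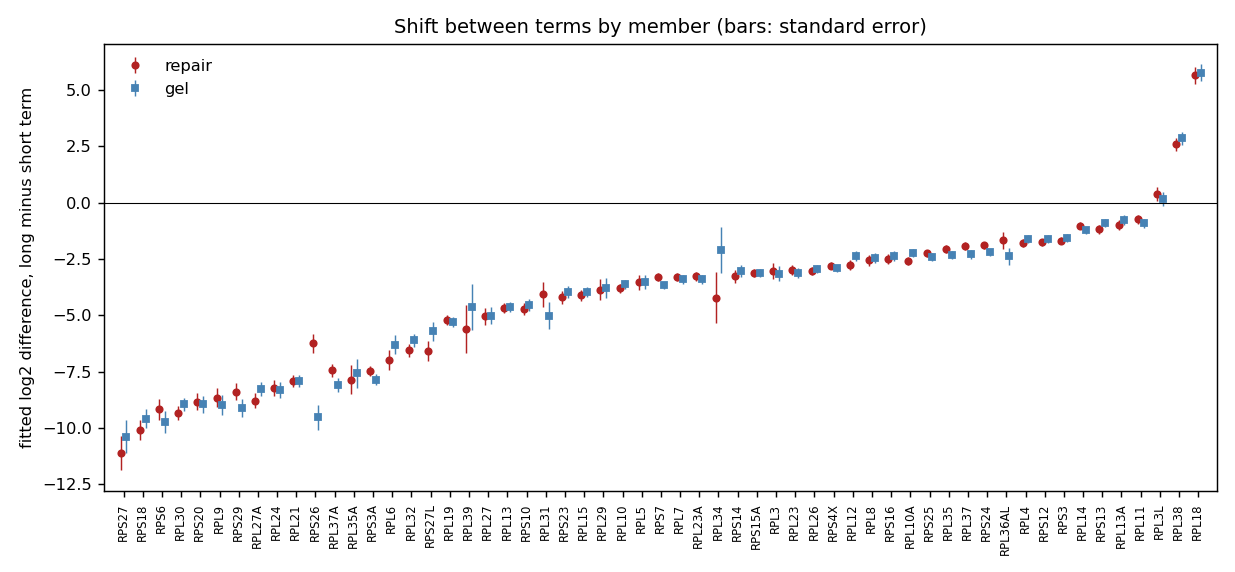
Fitted log2 difference, long minus short term, of each member reported singly in repair (red circles) and with the gel (blue squares), with standard errors, ordered by the mean of both. The values run from below -10 (RPS27) to above 5 (RPL18), and RPL3L lies near 0.

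RPL3L, RPL38, RPL18 and RPL34 were not past the threshold as lower in both treatments, and the first 3 had fitted values above 0 in both. RPL3L had a median of 436 CPM in the short term and 413 CPM in the long term, with log2 differences of 0.39 (SE 0.29, edgeR adjusted p = 0.280) in repair and 0.16 (SE 0.29, adjusted p = 0.668 by edgeR) with the gel. RPL3 fell from 268 to 35.6 CPM, with log2 differences of -3.03 and -3.15. RPL38 rose from 1.35 to 5.01 CPM across the short-term libraries to 12.7 to 35.2 CPM across the long-term ones, by 2.59 (SE 0.28) in repair and 2.86 (SE 0.28) with the gel, with edgeR adjusted p-values of 9.08e-09 and 1.11e-09.

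RPL18, of the large subunit, was nearly absent from the short-term libraries at 0.0481 to 0.503 CPM and had 11 to 36.1 CPM in the long term, a rise of 5.66 (SE 0.37) and 5.77 (SE 0.37). RPL34 passed as lower in repair (-4.22, SE 1.14, edgeR adjusted p = 0.00345) but not with the gel (-2.10, SE 1.02, adjusted p = 0.0879 by edgeR), where 3 of 5 libraries were at its high level. The difference between those 2 values was not past the threshold in the test of the gel effect between terms.

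The related ribosomal genes outside the naming rule were also read. Of 7 tested genes of the ribosome that the naming rule leaves out, 6 fell in both treatments. RPSA, of the small subunit, fell by 4.64 on the log2 scale in repair, and RPLP0, the stem of the stalk, by 3.42. The stalk protein gene RPLP1 had -0.19 (SE 0.22, edgeR adjusted p = 0.502) in repair and -0.09 with the gel. Rows carrying only a locus number that a RefSeq table names RPS27A, RPL36A, RPL7A and RPL17 had log2 differences in repair of -3.21, -7.05, -1.37 and -2.52.

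Lists outside the cytosolic ribosome had medians nearer 0 than the ribosomal protein genes. Mitochondrial ribosomal proteins had medians of -0.02 in repair and -0.07 with the gel over 71 genes, with 14 and 9 higher and 20 and 21 lower. Respiratory chain subunits had medians of 0.22 and -0.10 over 47 genes. Other TOP messages lay lower, at -0.74 and -0.73 over 15 genes, with 8 and 10 past the threshold as lower, against medians of -0.11 and -0.09 for all genes. Ribosome biogenesis factors had -0.11 and -0.14 over 41 genes, and mTORC1 signalling genes -0.03 and 0.04 over 19. Single genes of some lists also shifted far. In repair the values ran from -6.49 to 9.36 for mitochondrial ribosomal proteins and from -2.65 to 3.54 for respiratory chain subunits. They ran from -8.43 to 0.24 for other TOP messages, from -8.56 to 0.73 for biogenesis factors and from -1.13 to 1.16 for mTORC1 signalling genes. Cell type markers differed between the terms as well. Of 5 markers of dividing cells 4 were lower in both treatments, with sums of 1.52 to 48.4 CPM in short-term repair and 1.64 to 2.91 CPM in long-term repair, and of 6 fibroblast markers 5 were lower in both. Their part in the fall of the ribosomal protein genes was not tested.

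The gel effect itself, gel minus repair in the long term against the same in the short term, was past the edgeR threshold for 0 of 61 members and for 0.0155% of all genes. The count was also 0 by DESeq2 and limma voom, where they called 0.221% and 0.0387% of all genes. At an unadjusted p under 0.05 there was 1 member, lower, where 4.71% of all genes were. That was RPS26 (-3.29, edgeR adjusted p = 0.214), a small subunit protein at the exit of the messenger RNA, with at most 3 counts in a long-term library, so its fitted value depends on the prior count. The median of the members was 0.08, against 0.07 for all genes. Without the libraries that stand apart it was -0.10, against 0.04.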

How the data were processed

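Bulk RNA sequencing was done on rabbit supraspinatus, with 34 libraries in 1 file each. A commercial laboratory extracted the RNA and built the libraries, per the labels' protocols. What the authors deposited are raw counts of reads for each gene, whole numbers with no scaling. The aligner STAR, the package edgeR and genome build OryCun2.0 appear without versions in the notes on processing (per the submitters' processing notes). How reads were counted, on which annotation and whether by strand is not given in the sources used here. Reads of members with near-identical copies, such as processed pseudogenes, can therefore have been split, moved or dropped, and every member's level is uncertain to that extent.

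The files had 18210 entries each. Names had turned into dates for 26 entries of 1 file, which were dropped from all files (up to 0.163% of the counts), and 7 symbols that occurred repeatedly were summed over their 15 entries, leaving 18176 genes. Members were the names made of RPL or RPS, a number and an optional letter or final L. A RefSeq table of another rabbit assembly served for names only. The members and gene lists were chosen with earlier results of these data known. Single values of a few members are not reported here, and these members stay in every fit, count and median.

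R 4.3.3 and edgeR 4.0.16 were used: genes were filtered by expression, libraries scaled with TMM and tested with the robust quasi-likelihood test, 2-sided, with Benjamini-Hochberg adjustment over all genes and a threshold of 0.05. Short-term libraries (14) shared a fit of 13526 genes, long-term libraries (20) another of 11605, and comparisons between terms used all 34 libraries and 12935 genes. Levels are CPM, counts scaled to library size with TMM factors from all 34 libraries. Fitted log2 differences are the first group minus the second. The scripts were tested on simulated data. The log2 ratio of RPL3L to RPL3 used a prior count of 2 and an exact permutation test over libraries. Pairs of a code were compared by an exact test that flips the signs of their differences.

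Genes named singly were paralog pairs, members with a known second role, the 3 highest and 3 lowest members of a comparison, members past the threshold or without overlap between groups, and those that did not share the shift between terms. RPL29, RPL31, the members read singly in short-term gel replicate 5, and members at an unadjusted p under 0.05 were named after their values were seen. Alternatives were DESeq2 1.42.0, its size factors, limma 3.58.1 voom with sample quality weights, no filter, TMM without ribosomal genes, other sets of libraries, replicate blocks, and each replicate left out. Library totals without TMM factors, and the gel comparisons without short-term gel replicate 5, were added after seeing the data, as was the animal block without the code of long-term gel replicate 1.

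Sample titles gave the groups and replicate numbers. No 2 libraries of a group were identical (91 pairs, lowest chi-square per degree of freedom 9.86). The labels do not say that a group's libraries came from separate animals, so p-values measure the spread between these libraries, which may be technical. In the long term, file names carry an animal code that an operated and an uninjured library share. Deviations from group means correlated between libraries of the same code with r from -0.19 to 0.322 (median 0.16), above 0.1 in 6 of 10 pairs.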

Additional observations from a re-analysis of the deposited data

Results flagged for a closer look

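Libraries far from the others of their group were sought for 180 sets of values of 29 members, in groups of 4 to 10 libraries, and 16 were found. Chance flags about 1 in 20 such groups. In short-term gel replicate 5 RPL35A had 1.77 CPM, RPL39 0.885 CPM, RPS27 4.25 CPM and RPS27L 4.82 CPM, all far below the other 4 gel libraries. In long-term gel replicate 1 RPL3L had 920.1 CPM, RPL13A 384.2, RPS13 326.1, RPL23A 45.65 and RPL18 36.12 CPM, all above the other 4 gel libraries. That library held the highest or the lowest value of the term for a large share of all genes, as given above.

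The other 7 were spread over groups. Short-term repair replicate 4 was low in RPL12 (375.4 CPM), and repair replicate 5 was high in RPL14 (334.7 CPM) and RPL27A (361.6 CPM). Short-term injury replicate 3 was low in RPL3L (280.7 CPM) and high in RPL7 (486.4 CPM). Long-term repair replicate 1 was high in RPL34 (11.04 CPM), and uninjured replicate 6 was low in RPL9 (0.2886 CPM).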

How the results depend on the processing

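Of 494 alternative values of the 24 main results, 479 counted as kept. A ratio was kept if its direction and side of the threshold held, and a count of calls if it was equal or close. A median was kept if it moved by less than the spread of the library means, whatever its sign. The fall from 0.228 to 0.012 with library totals, in short-term gel against repair, thus counted as kept. The number therefore says little about the stability of small medians. In repair against injury limma voom called 6 members, where it called 34.7% of all genes, and the main count was 0. The fit without the libraries that stand apart called 2 members, with 33.3% of all genes. The median there was 0.362 with library totals and ranged from -0.154 to 0.012 with a replicate left out. In gel against injury, with a main count of 0, DESeq2 called 4 (and 5.84% of all genes) and limma voom 5 (27.9%). The fit without the libraries that stand apart called 2 there (18.9%). In repair against uninjured muscle DESeq2 called 2, with 2.02% of all genes, against 0. The fit without long-term gel replicate 1 also called 2, with 1.46% of all genes. Leaving out a replicate gave 0 to 1 (1 without repair replicate 2). With the animal code as a replicate block the median of gel against long-term repair was -0.034. Without both libraries of the code of gel replicate 1, a choice made after seeing the data, it was -0.118, and that of gel against uninjured muscle was -0.325. With library totals the medians between terms were -3.681 in repair and -3.728 with the gel. The cause of these changes was not tested.

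With the title number as a replicate block the members' medians were 0.207, -0.056 and 0.169 for the 3 short-term comparisons and 0.193, -0.357 and -0.129 for the long-term ones, and no call changed. Libraries with the same title number had correlations of deviations from -0.387 to 0.412 in the short term (above 0.1 in 5 of 13 pairs) and from -0.381 to 0.322 in the long term (3 of 15), so the number was not taken as a pairing. Of 3857 alternative values of single members, 3693 stayed on their side of the threshold (below it, within 1 SE of the main value), 139 below it moved further and 24 passed it where the main fit did not. The sign changed in 210 values, of 57 of 175 named differences, and in 0 of these was the member past the threshold in either fit. RPL13A in the gel between terms no longer passed when only the groups compared were fitted (-0.77, edgeR adjusted p = 0.0738). With 5 members at 14 counts or fewer in the long term, treatment differences in them were not detectable at this depth.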
